A study of Arabidopsis thaliana with 5 samples.

Results

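BRL1 (locus AT1G55610) and BAT1 (locus AT4G31910) are an Arabidopsis gene for a brassinosteroid receptor and one for an enzyme that inactivates brassinosteroids. They were taken by locus among the probe sets that the platform annotation ties to exactly 1 gene, and they are 2 of the 13356 genes with such a probe set. Each has 1 probe set, 264537_at for BRL1 and 253483_at for BAT1. Transcript levels were measured on Affymetrix ATH1 arrays, which read each gene with a set of short probes. There were 2 BL arrays and 3 control arrays, a number that sets the precision of all values below. All seedlings carried the reporter pBRL3:nlsYFP, in which the promoter of the receptor gene BRL3 drives a yellow fluorescent protein sent to the nucleus. The BL group was 6-day-old seedlings that spent 2 h in a liquid medium holding brassinolide (BL) at 10 nM, a highly active brassinosteroid. The control group was seedlings of the same age and line kept for 2 h in medium with ethanol as the mock. Their primary root tips were turned into protoplasts, and cells with fluorescence were then gathered by cell sorting (FACS). Levels therefore refer to cells with an active BRL3 promoter after protoplasting, in both groups.

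Brassinosteroids are growth-promoting steroid hormones of plants. They are perceived at the plasma membrane by leucine-rich-repeat receptor kinases, of which BRI1 is the main receptor and BRL1 and BRL3 are close relatives that also bind the hormone and act mainly in vascular tissue. Binding of the hormone leads, through a chain of kinases and phosphatases, to the activity of the BZR-type transcription factors. These factors alter growth genes and also feed back on the genes for synthesis and breakdown of the hormone. Breakdown and modification run through hydroxylation, glucosylation, reduction and acylation. BAT1 belongs to the BAHD family of acyltransferases and is tied to the acylation route, and plants that overexpress it look deficient in brassinosteroids.

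The arrays differed among themselves. Across probe sets, none of which is an independent replicate, the Pearson correlation was 0.992 between the 2 BL arrays, and 0.898 to 0.915 between control replicate 2 and each other array. Transcripts of bacterial origin, added before labelling, had medians of 4.53 and 4.76 (log2) in the BL arrays, against 4.72, 8.44 and 7.73 in control replicates 1, 2 and 3. By these added transcripts, control replicates 2 and 3 lay apart from the other arrays. The correlations of control replicate 3 with the other arrays ran from 0.915 to 0.955. The BL mean minus control replicate 1 is given below as the value within the group of arrays with low added transcripts. That value rests on a single control array, without a spread among controls. The added hybridisation controls had medians of 8.02 and 7.68 in the BL arrays and of 8.49, 10.5 and 9.41 in control replicates 1, 2 and 3. For actin, GAPDH and ubiquitin, the mean log2 signal at the 3' end minus that at the 5' end was also read. It was 4.34 and 4.46 in the BL arrays and 4.36, 4.70 and 4.38 in control replicates 1, 2 and 3. Its part in the results below was not tested. Of 39 marker genes of 6 root and leaf cell types, 10 had a single-gene probe set. Of these 10, 0 passed the test described below. Of all 22746 probe sets, 0 passed it too, so this count says nothing about the mix of cell types. The root cap list had 0 of 5 measured. The mean log2 level of the 3 vascular markers PHV, OPS and LHW was 6.88 to 7.05 in the BL arrays and 7.03 to 7.47 in the control arrays. The mean of the 2 root hair markers EXPA7 and EXPA18 was 4.72 to 5.25 in the BL arrays and 4.28 to 6.35 in the control arrays, with the highest value in control replicate 2. For the 3 stem cell niche markers BBM, JKD and AGL42 it was 4.96 to 5.45 with BL and 4.72 to 5.04 in controls. The single endodermis and cortex marker was at 3.77 to 3.89 with BL and 3.46 to 4.28 in controls. The leaf marker RCA was at 4.50 to 4.65 with BL and 4.64 to 4.95 in controls. BRL3 itself and the reporter were not analysed here. In such sorted bulk samples, fewer cells of a type and less RNA per cell cannot be told apart.

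BAT1, the inactivating enzyme, had the lower transcript level after BL. Its log2 expression was 7.26 and 8.09 in BL replicates 1 and 2, against 9.84, 8.55 and 9.50 in control replicates 1, 2 and 3. Both BL arrays lay below every control array, and the highest BL value was 0.46 below the lowest control value. BL arrays averaged 7.67 ± 0.59 (SD, n = 2), and control arrays averaged 9.30 ± 0.67 (SD, n = 3). The log2 difference was -1.62 ± 0.50 (SE), with a 95% interval of -2.98 to -0.26, so that the fitted level with BL was 3.08-fold lower. Set against control replicate 1 alone, the difference was -2.16. Of the vascular markers, PHV, a transcription factor of vascular patterning, also lay below every control with BL, as did 9.75% of all probe sets. It was at 7.73 and 7.47 in BL replicates 1 and 2, against 8.16, 8.42 and 8.82 in control replicates 1, 2 and 3, a log2 difference of -0.87 ± 0.24 (SE, limma unadjusted p = 0.0197, adjusted p = 0.613). LHW and OPS, the other measured markers of that list, differed by 0.10 and -0.07. The part of vascular cells in the BAT1 result was not tested.

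This difference did not pass the test across all probe sets. limma, which fits each probe set and borrows its spread in part from the others, gave BAT1 an unadjusted p of 0.0292 and an adjusted p of 0.653 after Benjamini-Hochberg over 22746 probe sets. An adjusted p under 0.05 was reached by 0 of 22746 probe sets (0%), and an unadjusted p under 0.05 by 7.1%, of which the lower side made up 3.06% of all probe sets. Both BL arrays lay below every control array for 9.75% of all probe sets, BAT1 among them. The exact permutation test of the BAT1 means over the 10 possible splits, two-sided, gave p = 0.2, where the smallest p the design allows is 0.1. In size, 0.774% of all probe sets had a difference as low as that of BAT1 or lower.

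The spread within each group was wide for BAT1. The BL replicates were 0.83 apart, and 1.57% of all probe sets had a BL SD at least as large. The controls spanned 1.29, and control replicate 2 minus the mean of the other two was -1.12. All 6 pairs of a BL and a control array had the lower value in the BL array, by differences between -2.58 and -0.46. Leaving out BL replicate 1 gave a difference of -1.21, and leaving out BL replicate 2 gave -2.04. Without control replicate 2 it was -1.995. That array was the lowest control for BAT1, so leaving it out could only widen the difference and does not test its direction.

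The order of BAT1 within each array moved the same way, which is no separate support. The processing gave the arrays nearly the same distribution of values, so a percentile largely restates the log2 value. Its probe set stood at the 71.8th and 81.4th percentile of all probe sets in BL replicates 1 and 2. In control replicates 1, 2 and 3 it stood at the 94.5th, 87.4th and 93.2nd percentile. A percentile serves here to compare 1 probe set between arrays, since probe sets differ in how brightly they bind. The percentile averaged 76.6 ± 6.81 over BL arrays (SD, n = 2) and 91.7 ± 3.78 over control arrays (SD, n = 3). The difference of -15.1 percentile points had an exact permutation p of 0.1, two-sided, the smallest the design allows.

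BRL1, the receptor, did not show a difference beyond the spread of the arrays. Its log2 expression was 6.04 and 5.76 in BL replicates 1 and 2, against 5.69, 4.104 and 5.80 in control replicates 1, 2 and 3. The groups overlapped, because BL replicate 2 lay 0.04 under control replicate 3, and 4 of the 5 arrays lay close together with control replicate 2 far below them. BL arrays averaged 5.90 ± 0.20 (SD, n = 2), and control arrays averaged 5.20 ± 0.95 (SD, n = 3). The log2 difference was 0.70 ± 0.61 (SE), with a 95% interval of -0.95 to 2.36 and a limma adjusted p of 0.810 after Benjamini-Hochberg. The interval holds both lower and higher levels with BL, so it does not show that BRL1 was unaltered. The exact permutation test over 10 splits, two-sided, gave p = 0.5.

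Control replicate 2 decided the size of the BRL1 difference. Control replicate 2 minus the mean of control replicates 1 and 3 was -1.64, while the last 2 arrays were 0.11 apart. A deviation of control replicate 2 at or below -1.64 was seen for 2.71% of all probe sets, and a control SD at least as large as that of BRL1 for 8.07%. Without control replicate 2 the difference was 0.16 ± 0.13 (SE), and against control replicate 1 alone it was 0.21. By position within each array, BRL1 stood at the 55.6th and 51.7th percentile in BL replicates 1 and 2. It stood at the 50.5th, 18.9th and 52.6th percentile in control replicates 1, 2 and 3. The distance of these signals from background was not measured, so they do not show how strongly BRL1 is expressed.

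**Figure D1:**
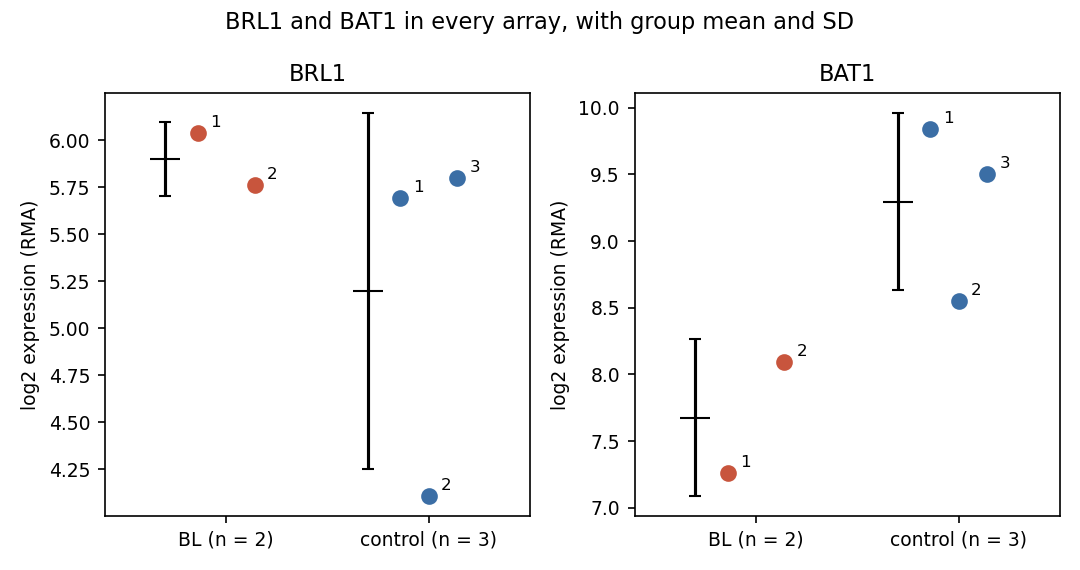
Log2 expression (RMA, y axis) of BRL1 (left) and BAT1 (right) in each array, BL in red and control in blue, with the replicate number beside each point and the group mean ± SD as a black bar. For BAT1 both BL points lie below all control points, and for BRL1 the groups overlap with control replicate 2 alone at 4.104.

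Whether the receptor and the enzyme responded differently was asked within each array, from the log2 value of BRL1 minus that of BAT1. It was -1.22 and -2.33 in BL replicates 1 and 2, against -4.15, -4.45 and -3.70 in control replicates 1, 2 and 3. The groups did not overlap, and control replicate 2 lay with the other controls, since BRL1 and BAT1 were both low there. It averaged -1.77 ± 0.79 over BL arrays (SD, n = 2) and -4.099 ± 0.37 over control arrays (SD, n = 3). The gap between the genes was thus 2.33 log2 units smaller with BL. The exact permutation test over 10 splits, two-sided, gave p = 0.1, the smallest the design allows, so this comparison cannot reach 0.05. Only the change of this gap between arrays is read here, as the levels of different probe sets cannot be set against each other. Leaving out 1 array at a time gave values from 1.77 without BL replicate 1 to 2.88 without BL replicate 2. BAT1 alone also kept the groups apart, and its difference of -1.62 gave more of the change than the 0.70 of BRL1. Without control replicate 2 the gap changed by 2.15, of which BRL1 gave 0.16. The gap thus largely restates the BAT1 result. Of single probe sets, 9.75% had both BL arrays below every control and 11.4% above, and the share among gene pairs was not computed.

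Other processing choices left BAT1 lower and BRL1 higher with BL, though several of them alter only the spread and cannot move the difference. Across the 16 alternatives fitted for BAT1, the log2 difference ran from -2.16 to -1.21, and the limma adjusted p from 0.234 to 1. Across the 15 fitted for BRL1, it ran from 0.16 to 1.002, with limma adjusted p from 0.590 to 1. Under array weights, which count arrays with more scatter less, BAT1 was at -1.78 and BRL1 at 0.34. None of these alternatives took either gene past the adjusted threshold.

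**Figure D2:**
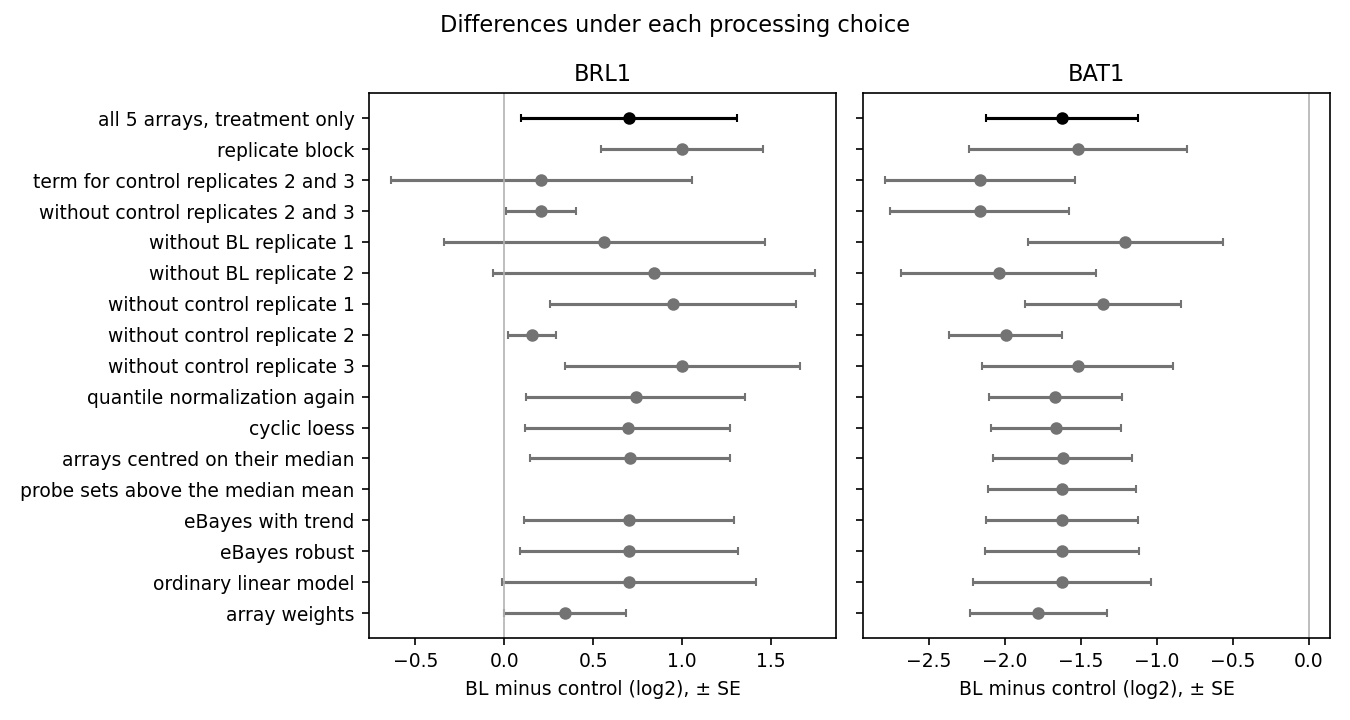
BL minus control (log2, x axis) ± SE for BRL1 (left) and BAT1 (right), 1 row per processing choice, with the fit to all 5 arrays in black on top. BAT1 lies left of 0 in every row, between -2.16 and -1.21, and BRL1 lies between 0.16 and 1.002, nearest to 0 where control replicate 2 is left out. BRL1 has no point among probe sets above the median mean, since it lies under that level.

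Few other genes of the hormone's pathway could be read beside these. Of 76 listed brassinosteroid genes, 7 have a single-gene probe set, and 5 of these are neither BRL1 nor BAT1. Of the 5, 0 passed the adjusted test, and 2, AT1G27190 and CPI1, had an unadjusted limma p under 0.05 on the higher side, where 4.05% of all probe sets had one. All 5 had a higher mean with BL, as did 45.2% of all probe sets, and their median log2 difference was 0.68, against -0.02 over all probe sets. Against control replicate 1 alone, 3 of the 5 were higher, AT1G27190 by 0.35, EXPA8 by 0.53 and CPI1 by 0.96. There ARL differed by -0.12 and BIM1 was equal. BAT1 was the only measured gene of the 76 with a lower mean over all arrays, and against control replicate 1 alone ARL was lower too. The list of cytoplasmic signalling genes had 0 of 11 members with such a probe set.

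On the list of receptors and co-receptors, the other measured gene was AT1G27190, placed there by its locus. AT1G27190 is a pseudokinase that binds BAK1 and BRI1, and not itself a receptor of the hormone. It was at 7.87 and 7.65 in BL replicates 1 and 2, against 7.41, 6.67 and 6.97 in control replicates 1, 2 and 3. Both BL arrays lay above every control, as for 11.4% of all probe sets, and the log2 difference was 0.74 ± 0.26 (SE, limma adjusted p = 0.676). Against control replicate 1 alone it was 0.35. Of receptor kinases in the subfamily around the BRI1 family, EMS1, a receptor of anther cell fate, differed by 0.03 and PSY1R, a receptor for a tyrosine-sulfated peptide, by -0.59. PSY1R was at 5.26 and 5.70 in the BL arrays, inside the control range of 4.77 to 7.18.

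In biosynthesis, CPI1, the cyclopropyl isomerase of plant sterol synthesis, was the only measured member of 18. It was at 7.94 and 7.69 in BL replicates 1 and 2, against 6.85, 6.80 and 6.37 in control replicates 1, 2 and 3. Both BL arrays lay above every control, as for 11.4% of all probe sets. The log2 difference was 1.14 ± 0.20 (SE), a fold of 2.21, with a limma adjusted p of 0.558. Against control replicate 1 alone the difference was 0.96. CPI1 acts on sterols far upstream of the hormone itself, whereas BAT1 is the measured gene of the inactivation list, 1 of 9.

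BIM1, a partner of the BZR-type factors, was at 7.60 in both BL arrays and in control replicates 1 and 2, and at 7.39 in control replicate 3. Such equal values come from the way probe values were summarised. Of the growth genes that BL is known to induce, the expansin gene EXPA8 was at 4.95 and 5.21 in the BL arrays and at 4.56, 4.78 and 3.88 in control replicates 1, 2 and 3. Its difference was 0.68 ± 0.32 (SE, limma adjusted p = 0.748). ARL, which promotes organ growth, differed by 0.56 ± 0.44 (SE), and by -0.12 against control replicate 1 alone.

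**Figure D3:**
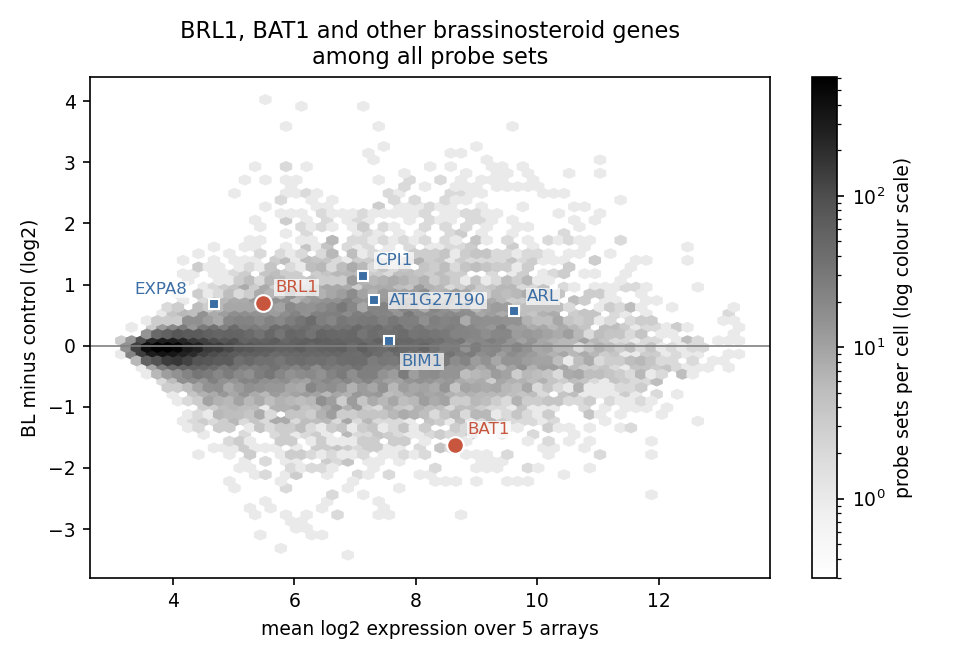
BL minus control (log2, y axis) against mean log2 expression over 5 arrays (x axis) for all 22746 probe sets (grey, log colour scale), with BRL1 and BAT1 as red circles and the 5 other measured brassinosteroid genes as blue squares. BAT1, at -1.62, lies below all the other marked genes, and BRL1, at 0.70, lies among them.

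BAHD enzymes move acyl groups from coenzyme A thioesters onto alcohols and amines, in pathways from lignin to surface waxes. Of 51 listed family members other than BAT1 and its relative BIA1, 40 have a single-gene probe set. Of these 40, 15 had a higher and 25 a lower mean with BL, and 0 passed the adjusted test. Their median log2 difference was -0.05, and 62.5% had a lower mean, against 54.8% of all probe sets. Both BL arrays lay below every control for 4 of 40, or 10%, and above every control for 5 of 40, or 12.5%, near the 9.75% and 11.4% of all probe sets. The difference of BAT1 was below that of each of the 40, which ran from -1.31 to 2.49, and 31 of them, or 77.5%, differed by less than 0.5 in size, near the 78.7% of all probe sets.

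HCT, the hydroxycinnamoyltransferase of lignin synthesis, came next to BAT1 in this family. It was at 9.18 and 9.70 in BL replicates 1 and 2, against 11.2, 10.3 and 10.8 in control replicates 1, 2 and 3. Both BL arrays lay below every control, as for 9.75% of all probe sets. The log2 difference was -1.31 ± 0.34 (SE, limma adjusted p = 0.597), or -1.72 against control replicate 1 alone. On the higher side AT2G39980 had the widest difference, 2.49 ± 1.32 (SE). It was at 10.7 and 10.5 in the BL arrays and at 9.20, 5.69 and 9.42 in control replicates 1, 2 and 3, so that control replicate 2 again lay far below the rest. AT5G07870 had the smallest p on that side, with a difference of 1.10 ± 0.35 (SE, limma adjusted p = 0.656).

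**Figure D4:**
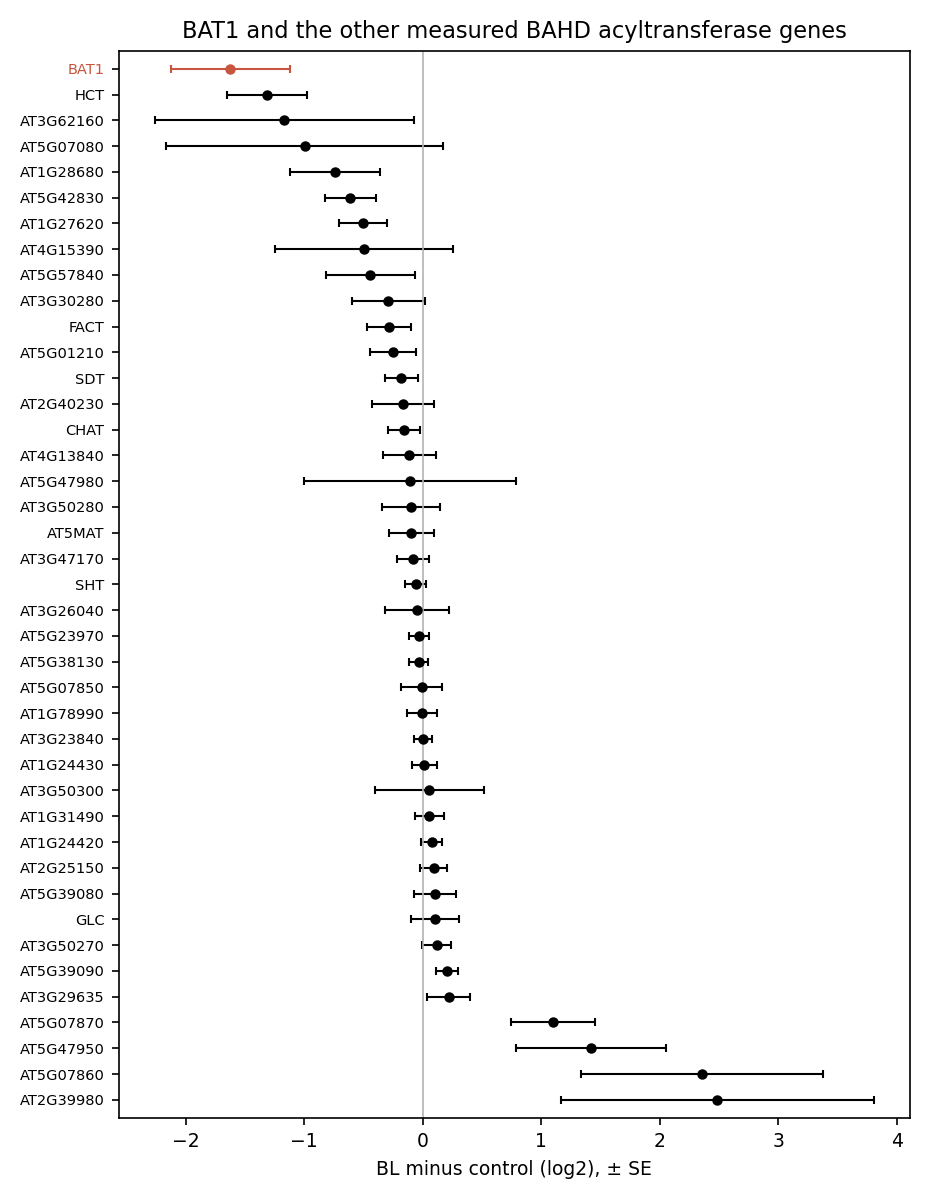
BL minus control (log2, x axis) ± SE for BAT1 (red, top row) and the 40 other measured BAHD genes, ordered from lowest to highest. BAT1 at -1.62 and HCT at -1.31 lie at the low end, 31 of the 40 lie within 0.5 of 0, and AT2G39980 lies at the high end at 2.49.

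The genes whose values ran most like those of either gene were found among 13355 others. Likeness was the root mean square (RMS) difference over the 5 arrays, after each gene was centred on its own mean. For BAT1 the nearest genes were AT3G62040 at 0.19, HCT at 0.23, AT3G45700 at 0.23, SUFE2 at 0.30 and LCR69 at 0.31 (RMS difference, log2). SUFE2 serves iron-sulfur cluster assembly, and LCR69 is a small cysteine-rich secreted peptide. AT3G62040 was at 6.402 and 7.08 in BL replicates 1 and 2, against 8.52, 7.77 and 8.51 in control replicates 1, 2 and 3. All 5 had, as BAT1, their lowest values in the BL arrays, which the search for likeness fixes. HCT is the BAHD gene described above, and whether a gene of that family would be found among 5 by chance was not tested.

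For BRL1 the nearest genes were AT4G03230 at 0.05, AT2G21230 at 0.06, AT5G54300 at 0.08, ATSYTF at 0.08 and AT5G16220 at 0.10 (RMS difference, log2). AT4G03230 was at 6.00 and 5.87 in BL replicates 1 and 2, against 5.70, 4.18 and 5.87 in control replicates 1, 2 and 3. The pattern they share with BRL1 is a low value in control replicate 2 and nearly level values elsewhere. No p is given for likeness, as it rests on 5 arrays that share these features.

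**Figure D5:**
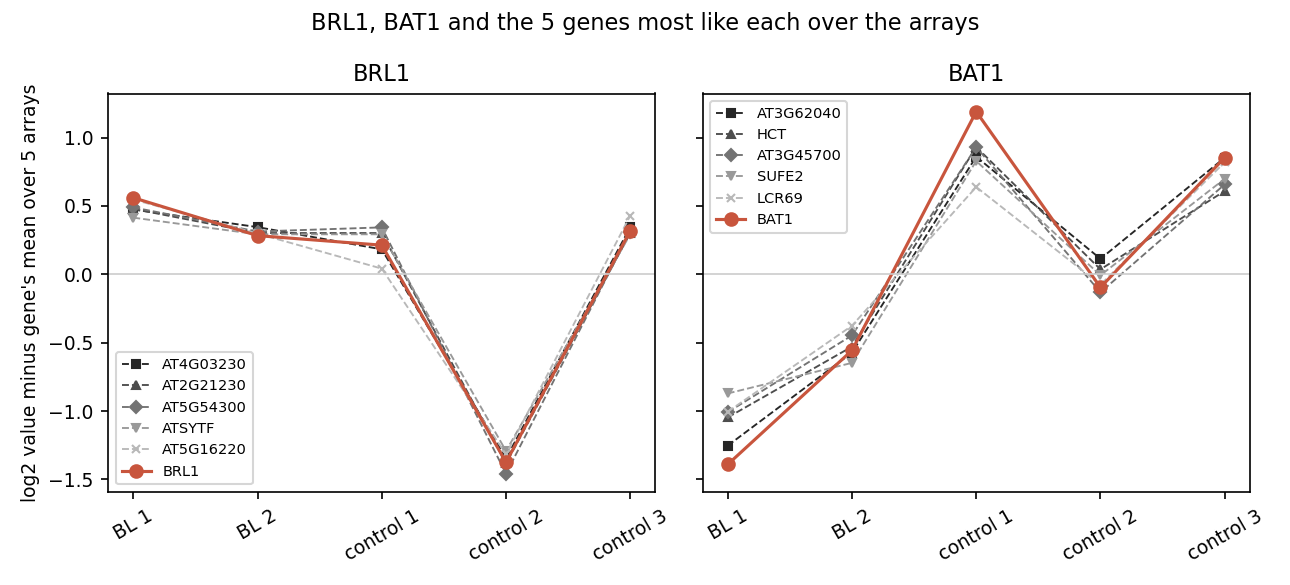
Log2 value minus the gene's mean over 5 arrays (y axis) by array (x axis) for BRL1 (left) and BAT1 (right) in red, with the 5 genes nearest to each in grey. The BRL1 group is level apart from control replicate 2, and the BAT1 group is lowest in the BL arrays.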

How the data were processed

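The deposited table holds log2 expression values for 22810 probe sets on 5 arrays, made by the authors; the submitters' processing notes name RMA, R 4.1.1, affy 1.70.0 and limma 3.48.3. In RMA, background is removed, arrays are quantile normalized and the probes of a set are combined by median polish, which left 44.7% of the probe sets with values tied between arrays. No source used here gives the base of the logarithm. It was taken as 2, the usual base of RMA, and the values lay between 2.99 and 14.1. Groups and replicate numbers came from the sample titles. Nothing in the labels says that replicates were grown separately, so the p-values rest on a spread between arrays that may be technical.

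After 64 control probe sets were set aside, limma 3.58.1 (R 4.3.3) was run on 22746 with lmFit and eBayes and no covariate besides treatment. The p-values were adjusted by Benjamini-Hochberg over all 22746, and the threshold was 0.05. The fit was tested on simulated data. Names came from the platform annotation, in which 13513 probe sets name 1 gene, updated through RefSeq (TAIR10.1), which was used for names and gene order only. For several probe sets of a gene, the one with the highest mean was used. Single values had exact permutation tests. The members, lists and alternatives were chosen with earlier results of these data known. Named were BRL1, BAT1, each measured brassinosteroid gene, the smallest p and widest difference in each direction among related genes, the 5 most alike genes, and the 2 nearest measured genes on each side. For the listed receptor kinases and BAHD genes these could coincide. Lists were written by locus, and membership of the BAHD list was not checked against sequence. Protein and promoter sequences were not used here.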

Additional observations from a re-analysis of the deposited data

How the results depend on the processing

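The direction was kept for BAT1 in 16 of 16 alternatives and for BRL1 in 15 of 15, and neither gene passed the adjusted threshold in any of them. BRL1 could not be fitted among probe sets above the median mean, since it lies under that level. These counts are not of separate checks. eBayes with trend, robust eBayes and the ordinary linear model alter only the spread, and so return 0.70 for BRL1 and -1.62 for BAT1 again. The filter on the median mean also returns -1.62 for BAT1. The replicate block gives the same differences as leaving out control replicate 3. With the replicate block the differences were 1.002 for BRL1 and -1.52 for BAT1. As a check of pairing, each array's deviation from its group mean was correlated across probe sets. The correlation was -0.060 between the arrays numbered 1 and 0.037 between those numbered 2. With 2 BL arrays, their deviations mirror each other, so these values are not separate and cannot exclude a pairing. The main fit assumed no pairing. With a term for control replicates 2 and 3, or without these arrays, the differences were 0.21 for BRL1 and -2.16 for BAT1. When single arrays were left out, BRL1 ran from 0.16 to 1.002, BAT1 from -2.04 to -1.21, and the gap between them from 1.77 to 2.88; a single remaining BL array then takes its spread from the controls. The count of probe sets past the adjusted threshold was 0 in each of the 16 alternatives, and the lowest adjusted p among them, 0.057, came with array weights. Probe sets without residual spread were left out of the ordinary linear model. An unadjusted p under 0.05 was found for 1616 probe sets, against 674 to 3507 with 1 array left out, 4753 without control replicates 2 and 3, 3505 with array weights and 993 in the ordinary model. The cause was not tested. Signal over background could not be judged from these values.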

Other observations

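The genes beside either locus on the chromosome were read in the same way. The 4 nearest measured genes around BAT1 are AT4G31880, AT4G31890, AT4G31930 and AT4G31960, and they differed between BL and control by -0.10 to 0.35 on the log2 scale (limma adjusted p 0.789 to 0.936). AT4G31930, the widest of these, was at 7.39 and 7.11 in the BL arrays and at 6.52, 7.07 and 7.11 in control replicates 1, 2 and 3. The 4 nearest measured genes around BRL1 are LAS, a transcription factor of shoot branching, AT1G55590, AT1G55630 and PRA1.G1, and they differed by -0.21 to 0.18 (limma adjusted p 0.808 to 0.977). Against control replicate 1 alone, BRL1 differed by 0.21. Its neighbours LAS, AT1G55630 and PRA1.G1 differed by 0.11, 0.07 and 0.16 there, and AT1G55590 by -0.26. AT1G55590 was, as BRL1, lowest in control replicate 2, at 5.87, against 6.60 and 6.43 in control replicates 1 and 3 and 6.34 in both BL arrays. LAS was at 4.73 in control replicate 2 and at 4.64 and 4.55 in control replicates 1 and 3.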
